A study of Mus musculus with 6 samples.

Results

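The genes described here are 9 genes by which heart muscle senses noradrenaline and adrenaline and then limits its own response: the adrenergic receptor genes Adrb1, Adra1a and Adra1b, the adenylyl cyclase genes Adcy5 and Adcy6, the receptor kinase genes Grk2 (formerly Adrbk1) and Grk5, the arrestin gene Arrb1 and the phosphodiesterase gene Pde4d. They were taken by name and make up 9 of the 20659 named genes on the array. Their transcripts were measured in total RNA from the heart ventricles of female C57BL/6N mice aged 21 weeks, each sample on its own 1-colour (Cy3) Agilent array. In the sleep fragmented group sleep was disrupted over 5 weeks (3 arrays), and control mice were left undisturbed (3 arrays). Titles of the control samples also carry the words for sleep fragmentation, and their last word, Control, set the group. The labels name no transgene, mutation or drug in either group. Whether an array holds RNA of 1 animal or of several is not stated, so every p below measures only how these samples scatter, and that scatter may be technical.

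Catecholamines released by sympathetic nerves bind the beta-1 receptor, which activates the stimulatory G protein and, through it, adenylyl cyclase. The resulting cyclic AMP (cAMP) activates protein kinase A, which raises the rate and force of the beat, and phosphodiesterases end the signal by degrading cAMP. Receptor kinases phosphorylate the active receptor and arrestins then bind and uncouple it, which is called desensitisation, and in failing hearts this arm is known to be raised and the beta-1 receptor to be lost. Alpha-1 receptors couple to phospholipase C instead and are known for their part in growth of heart muscle.

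All 9 marker genes fixed for heart muscle cells, among them Myh6, Tnnt2 and Actc1, were measured on these arrays. Between 59.2% and 72.6% of the 39429 probes on an array were well above background, with the lowest share on sleep fragmented replicate 1, which was also the dimmest (75th percentile of signal 122.7, against 203.9 to 251.7 elsewhere). The arrays also differed in the other tissue they held. On the log2 scale the mean of 5 measured atrial markers lay 3.18 above the control mean on sleep fragmented replicate 2 and 1.96 above it on control replicate 2, and between -1.84 and 0.20 on the other arrays. Myl7, the atrial myosin light chain, stood at 3.56 and 2.51 on these 2 arrays and between -3.26 and -1.18 on the rest. Myl4, Nppa and Dkk3 were also highest on these 2 arrays, although Myl4 was high on both replicates 3 too (4.42 and 4.03). Bmp10 was highest on sleep fragmented replicate 2 (-0.34) but lowest on control replicate 2 (-3.00). Of 8 adipocyte markers 4 were measured, and their mean was 2.27 and 1.59 on the same 2 arrays and between -1.49 and -0.10 on the rest. Fabp4, one of the 4, did not follow this, at 6.08 and 6.04 on the 2 arrays and 6.02 to 6.87 on the rest. The mean of the erythroid markers was 2.49, 1.16 and 0.69 on the sleep fragmented arrays and -0.22, 0.21 and 0.01 on the controls. In 5 of the 6, among them the haemoglobin genes Hba-a1 and Hbb-bs, the groups did not overlap, against 7.25% of all tested probes. These 5 had an unadjusted limma p under 0.05, against 2.91% of all tested probes, and none passed (adjusted p = 0.938 by limma). The other, Slc4a1, overlapped, with a log2 fold change of 0.45 ± 0.30. For fibroblasts all 7 marker genes stood higher in the sleep fragmented mean (median log2 fold change 0.42), and 0 passed by limma, adjusted or unadjusted. The part of these cell types in the values below was not tested. Each group was read in a scan of its own, so scan and group cannot be told apart in any difference below.

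**Figure D1:**
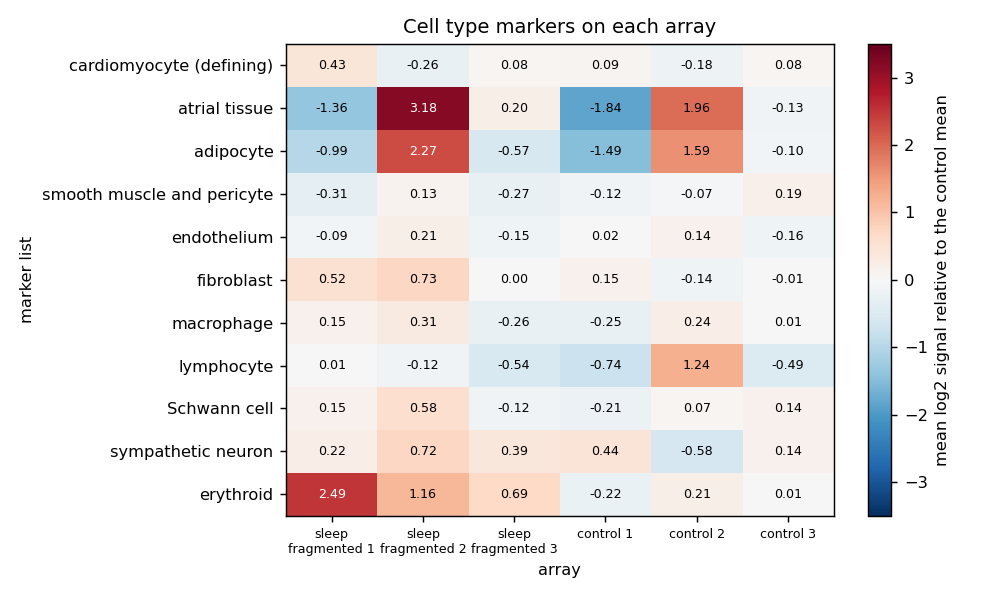
Mean log2 signal of each list of cell type markers (rows) on each of the 6 arrays (columns), relative to the list's mean on the control arrays; colour and printed number give the same value. Atrial and adipocyte markers are high on sleep fragmented replicate 2 (3.18 and 2.27) and control replicate 2 (1.96 and 1.59), while heart muscle markers lie between -0.26 and 0.43 on all 6 arrays.

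None of the 9 genes differed between the groups by the test. By limma with Benjamini-Hochberg adjustment over 25221 tested probes, 0 of the 9 passed an adjusted p of 0.05, where 0% of all probes did, and the adjusted p of the members' probes lay between 0.938 and 0.961. At an unadjusted limma p under 0.05 the count was also 0 of 9, against 2.91% of all tested probes. In 0 of the 9 did the groups separate without overlap, against 7.25% of all tested probes. With 9 genes, a count of 0 is near either background. Differences between the groups ran from a log2 fold change (sleep fragmented over control) of -0.34 for Adcy5 to 0.44 for Adra1b. Of the 9, 7 were negative and 2 positive, with a median of -0.12 against 0.08 over all tested probes. Their median size without regard to sign was 0.16, and over all tested probes it was 0.17. The scaling moves these values. The median of all probes was 0.00 with quantile normalization and -0.13 with median scaling, and the members' median was -0.23 and -0.33. Median scaling shifted all genes alike. Quantile normalization did not: Adrb1 moved from -0.12 to -0.29, and Adra1b from 0.44 to 0.47. A lower amount in bulk tissue can come from fewer cells of a type or from less RNA per cell, which cannot be told apart here.

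**Figure D2:**
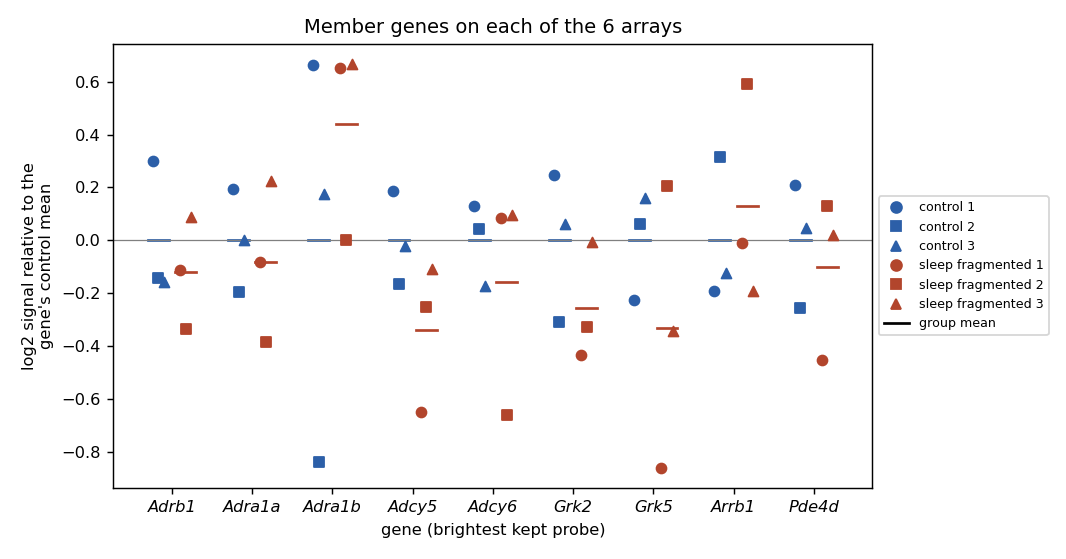
Log2 signal of the brightest measured probe of each of the 9 genes (horizontal axis) on each array, relative to the gene's mean on the control arrays (vertical axis); symbols mark the replicate number, colours the group, and short bars the group means. The groups overlap for all 9 genes, and the widest scatter belongs to Adra1b, whose control replicate 2 lies far below the other arrays.

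With all arrays and this scaling, the 95% limma interval of the difference lay within a 2-fold change in both directions for 8 of the 9 genes and reached beyond it for Adra1b, at up to 2.41-fold higher. Over the alternatives 6 to 9 genes lay within that bound: with median scaling the intervals of Adcy5 and Grk5 passed 2-fold lower, and without sleep fragmented replicate 3 those of Adcy5 and Grk5 passed 2-fold lower and that of Adra1b 2-fold higher. For 8 of the 9 the interval included a 1.5-fold change in at least 1 direction, so a change of that size is within the error of these values. The spread between arrays of a group (residual SD on the log2 scale) ran from 0.23 for Adcy5 to 0.61 for Adra1b, with a median of 0.28, against 0.27 over all tested probes.

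**Figure D3:**
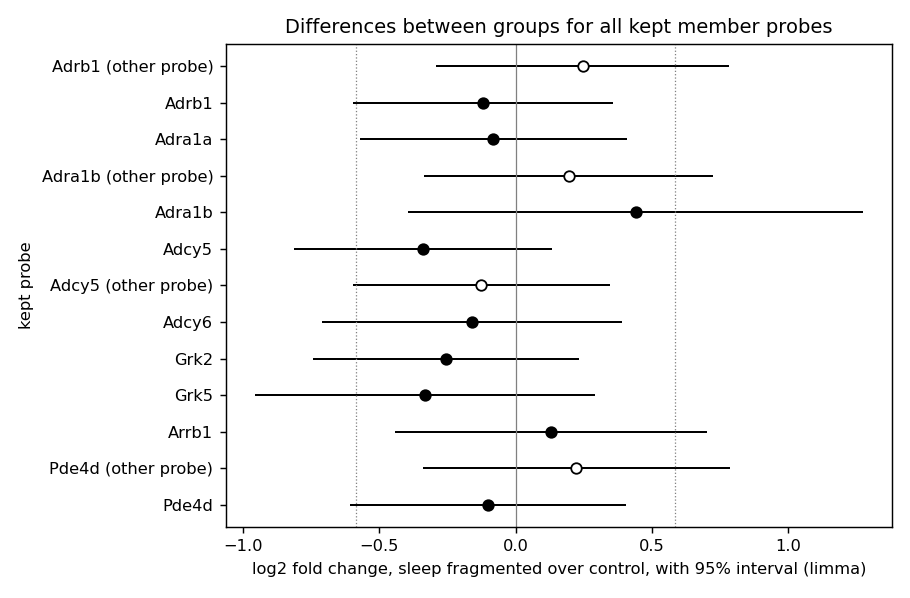
Log2 fold change, sleep fragmented over control (horizontal axis), with its 95% limma interval, for each of the 13 measured probes of the 9 genes (vertical axis); filled points are the brightest probe of a gene, open points its other probes, and dotted lines mark 1.5-fold. Every interval includes 0, and the longest, that of the bright Adra1b probe, runs from -0.39 to 1.27.

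The 9 genes had 14 probes on the array, 5 genes with 1 probe and 4 with several, and 13 probes were measured, that is, well above background on all 3 arrays of a group. The probe left out belongs to Adcy5 and was well above background on 1 sleep fragmented and 2 control arrays. Values below are log2 signals relative to the 75th percentile of the array, in the order of replicates 1 to 3, and levels of different probes are not set against each other.

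For 5 of the 9 genes (Adrb1, Adra1b, Adcy5, Grk5 and Pde4d) the RefSeq promoter table of build GRCm38.p6 held 6 windows, of which the 250 bases before the annotated start were searched on both strands. Motifs were the cAMP response element TGACGTCA, its half-site TGACG (which the full element contains), the E-box CACGTG through which the circadian clock factors act, and the D-box TTATGTAA. The only match was 1 half-site for Adrb1, 90 bases before the start. The half-site occurs in 17.8% of all windows of this length in the table, the full element in 1.55%, the E-box in 6.02% and the D-box in 0.819%. A match or its absence describes these letters only. Shown are the window of Adrb1, the receptor at the head of the pathway, with the half-site in capitals (chr19:56721867-56722116, plus strand), and that of Adcy5, the member with the smallest p, in which no motif matched (chr16:35154614-35154863, plus strand); both are GRCm38.p6, while the array was designed on mm9.
Adrb1: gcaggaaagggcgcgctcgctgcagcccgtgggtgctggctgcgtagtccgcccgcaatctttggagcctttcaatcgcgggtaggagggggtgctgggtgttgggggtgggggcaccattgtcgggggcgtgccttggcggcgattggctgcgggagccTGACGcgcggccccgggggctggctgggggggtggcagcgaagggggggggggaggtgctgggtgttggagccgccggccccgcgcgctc
Adcy5: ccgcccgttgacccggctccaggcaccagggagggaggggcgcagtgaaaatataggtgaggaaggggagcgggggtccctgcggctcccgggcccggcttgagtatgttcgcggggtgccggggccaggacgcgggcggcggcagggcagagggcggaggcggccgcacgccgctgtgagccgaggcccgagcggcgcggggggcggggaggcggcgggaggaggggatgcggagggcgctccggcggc

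Adrb1 encodes the beta-1 receptor, the main catecholamine receptor of ventricular muscle. Its brighter probe stood at -1.51, -1.96 and -1.97 on the control arrays and at -1.92, -2.15 and -1.72 on the sleep fragmented arrays. The highest value was control replicate 1 and the lowest sleep fragmented replicate 2, and the groups overlapped. Between groups Adrb1 differed by -0.12 ± 0.21 on the log2 scale (SE, 3 arrays a group, limma adjusted p = 0.947), with a 95% interval from -0.59 to 0.35. The other probe of the gene leaned the other way, at 0.25 ± 0.24 (limma adjusted p = 0.938), with -2.82, -3.06 and -2.46 on the controls and -2.36, -2.90 and -2.33 on the sleep fragmented arrays. Averaged over both probes the value was 0.06, so the direction for Adrb1 depends on the probe.

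Adra1a and Adra1b encode the alpha-1 receptors of heart muscle. Adra1a, measured by 1 probe, stood at -1.52, -1.91 and -1.71 on the controls and at -1.80, -2.10 and -1.49 on the sleep fragmented arrays, so that both the highest and the lowest array were sleep fragmented. Between groups it differed by -0.08 ± 0.22 on the log2 scale (SE, 3 arrays a group, limma adjusted p = 0.961), the smallest in size among the 9. For Adra1b the values were 2.69, 1.19 and 2.21 on the controls and 2.68, 2.03 and 2.70 on the sleep fragmented arrays. Control replicate 2 was the lowest array by a wide margin, and sleep fragmented replicate 2 came next. The log2 fold change of Adra1b was 0.44 ± 0.37 (SE, 3 arrays a group, limma adjusted p = 0.938), and it rested on that array: without control replicate 2 it was 0.02, and without control replicate 1 it was 0.77. The second Adra1b probe had a value of 0.19 ± 0.23. On this probe control replicate 2 (-0.87) lay between control replicates 1 (-0.77) and 3 (-1.25), so the low value of the first probe was not repeated.

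Among the other adrenergic receptor genes, Adrb3, Adra2b and Adra2c were measured. Adrb3, a beta receptor best known from fat, had a log2 fold change of 0.30 ± 0.23, Adra2c of 0.31 ± 0.32 and Adra2b of -0.19 ± 0.24, and none passed. Adra2a was well above background on 0 of the 6 arrays, and Adra1d on at most 3 by either of its 2 probes, so no difference is given for them.

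Adcy5 and Adcy6 encode the adenylyl cyclases that dominate in heart muscle, both inhibited by calcium. Adcy5 had the smallest p of the 9 genes, with an adjusted p = 0.938 by limma. The brightest probe read 0.34, -0.01 and 0.14 on the controls and -0.49, -0.10 and 0.05 on the sleep fragmented arrays. Sleep fragmented replicates 1 and 2 lay below every control and replicate 3 lay among them. The mean difference was 1.26-fold lower (log2 fold change -0.34 ± 0.21, SE, n = 3 per group, 95% interval -0.81 to 0.13). Sleep fragmented replicate 1, the dimmest array, was the lowest, and without it the value was -0.18. The second measured Adcy5 probe stood at -1.86, -1.42 and -1.46 on the controls and at -1.94, -1.64 and -1.53 on the sleep fragmented arrays, a log2 fold change of -0.12 ± 0.21. Both probes thus had the same sign, and neither passed.

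Adcy6 stood at 5.88, 5.79 and 5.57 on the controls and at 5.83, 5.09 and 5.84 on the sleep fragmented arrays. Sleep fragmented replicate 2 was the lowest array, and the other 5 lay close together, between 5.57 and 5.88. Adcy6 thus differed by -0.16 ± 0.24 on the log2 scale (SE, n = 3 per group, limma adjusted p = 0.944). It became 0.09 without sleep fragmented replicate 2. The array left out is the one on which the means of the atrial and adipocyte markers were highest. The part of those tissues in the value was not tested. Of the other cyclases Adcy9 had a value of -0.10 ± 0.23, Adcy4 of 0.17 ± 0.20 and Adcy8 of 0.35 ± 0.30, and none passed. Adcy1 was well above background on 0 arrays.

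Grk2 and Grk5 encode the receptor kinases best known from the heart; Grk2 is drawn to the membrane by free G protein beta-gamma subunits, while Grk5 is bound to the membrane and can also act in the nucleus. Grk2 stood at 1.61, 1.05 and 1.42 on the controls and at 0.93, 1.04 and 1.36 on the sleep fragmented arrays. Sleep fragmented replicates 1 and 2 lay just below control replicate 2, and replicate 3 within the controls. The difference was -0.26 ± 0.22 on the log2 scale (SE, n = 3 per group, limma adjusted p = 0.938), 1.19-fold lower, with a 95% interval from -0.74 to 0.23.

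Grk5 stood at 0.86, 1.14 and 1.24 on the controls and at 0.22, 1.29 and 0.74 on the sleep fragmented arrays. Both the highest and the lowest array belonged to the sleep fragmented group. Before scaling, the signal was 143 on sleep fragmented replicate 1, the dimmest array, and 456 to 537 on the controls. Grk5 differed by -0.33 ± 0.27 on the log2 scale (SE, n = 3 per group, limma adjusted p = 0.938), and its 95% interval, from -0.95 to 0.29, allowed up to a 1.93-fold lower level. It was -0.07 without sleep fragmented replicate 1 and -0.60 without sleep fragmented replicate 2. In the latter case the 2 remaining sleep fragmented arrays lay below all controls, as did those of 6.24% of all probes. In either direction 21.2% of all probes separated, and the adjusted p of Grk5 by limma was 0.738. Grk3, the closest relative of Grk2, had a log2 fold change of 0.20 ± 0.23 and Grk6 of -0.06 ± 0.18, and neither passed.

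Arrb1 encodes beta-arrestin 1, which binds phosphorylated receptors. It stood at 0.70, 1.21 and 0.77 on the controls and at 0.88, 1.49 and 0.70 on the sleep fragmented arrays. The highest array of each group was replicate 2, the pair with high atrial and adipocyte markers, and the other 4 lay between 0.70 and 0.88. The difference between groups, 0.13 ± 0.25 (SE, n = 3 per group, limma adjusted p = 0.949), was smaller than this gap within each group, and it was -0.10 without sleep fragmented replicate 2 and -0.08 with median scaling. Arrb2, which encodes beta-arrestin 2, had a log2 fold change of 0.20 ± 0.22 and did not pass.

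Pde4d encodes a cAMP-specific phosphodiesterase that sits in complexes with beta receptors and the calcium release channel of heart muscle. The brighter probe stood at 0.42, -0.04 and 0.26 on the controls and at -0.24, 0.34 and 0.23 on the sleep fragmented arrays. Only sleep fragmented replicate 1 lay below the controls. The difference was -0.10 ± 0.22 on the log2 scale (SE, n = 3 per group, limma adjusted p = 0.955), and 0.08 without that array. The other probe gave 0.22 ± 0.25, with -1.71, -2.30 and -1.43 on the controls and -1.38, -1.72 and -1.69 on the sleep fragmented arrays. Pde4d, like Adrb1, thus had a pair of probes of opposite sign, and their mean gave 0.06. Its relatives Pde4a (-0.12 ± 0.24) and Pde4b (0.35 ± 0.21) did not pass.

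Seen by array, control replicate 1 held the highest value for 5 of the 9 genes, sleep fragmented replicate 1 the lowest for 4 and sleep fragmented replicate 2 the lowest for 3. The 2 arrays with high atrial and adipocyte markers were the lowest 2 for Adra1a and Adra1b and the highest 2 for Arrb1. With both left out, an alternative chosen after seeing the data that leaves 2 arrays per group, 0 of the 9 genes passed and the median was -0.08. The log2 fold change was then -0.57 for Grk5, -0.46 for Adcy5, -0.37 for Grk2 and -0.35 for Pde4d. In these 4 genes the groups no longer overlapped, with the sleep fragmented arrays lower, against 9.75% of all probes lower in that way and 27.9% separated in either direction; for Adcy6 the value was 0.11 and for Adra1b 0.24.

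Grk2 and Adcy5 separated without overlap when control replicate 2 was left out and when sleep fragmented replicate 3 was. In both cases the sleep fragmented arrays were lower, as in 6.47% and 8.76% of all probes. In either direction 12.7% and 15.6% of all probes separated. The limma adjusted p of both genes was at least 0.983 in those comparisons. Across the 19 alternatives tried, of which 14 can move a fold change, Adcy5, Grk2 and Grk5 kept a negative value and Adra1b a positive one, in ranges of -0.55 to -0.18, -0.47 to -0.13, -0.60 to -0.07 and 0.02 to 0.77. The other 5 genes changed sign under at least 1 alternative.

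**Figure D4:**
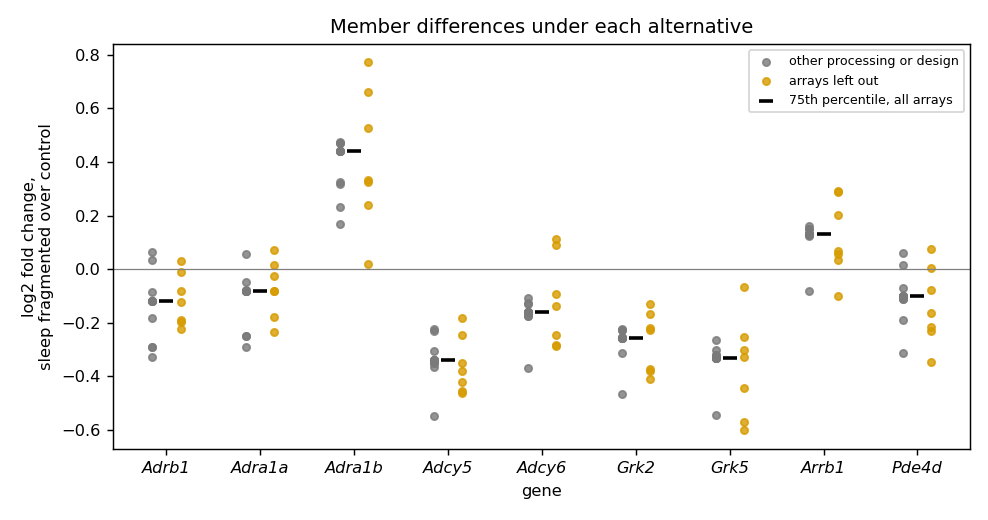
Log2 fold change, sleep fragmented over control (vertical axis), of each gene (horizontal axis) with all arrays and scaling to the 75th percentile (black bar), under other processing or designs (grey) and with arrays left out (orange). Values of Adcy5, Grk2 and Grk5 stay below 0 and those of Adra1b above it, while the other 5 genes cross 0.

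The barcode field of the file headers gives arrays of the same replicate number in both groups the same position number. Within numbers 1, 2 and 3 the difference, sleep fragmented minus control, was -0.84, -0.09 and -0.09 for Adcy5 and -0.68, -0.02 and -0.07 for Grk2. Both genes were thus lower in all 3 positions, by far the most in the first, which holds the dimmest array. The numbers are not stated to pair the samples. The share of all probes lower in all 3 positions was not counted, so nothing is concluded from this. For Grk5 the differences were -0.64, 0.14 and -0.50, for Adra1b -0.01, 0.84 and 0.49, and for Adcy6 -0.04, -0.70 and 0.27. The remaining 4 genes also had both signs. No gene of the 9 was higher in all 3 positions by its brightest probe.

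The rest of the pathway was described by 13 lists of 140 genes, of which 114 were measured. By limma 0 of the 114 passed the adjusted threshold, and 6 (5.26%) had an unadjusted p under 0.05, 4 higher and 2 lower, against 2.91% of all tested probes. The groups separated without overlap for 10 (8.77%), 8 higher and 2 lower, against 7.25%. The lists were chosen with earlier results of these data known, so these shares only describe them, and nothing is concluded from an excess over all probes. The median log2 fold change of the 114 was 0.05. The 6 genes at an unadjusted limma p under 0.05 all had an adjusted p of 0.938. They were Per1, a clock repressor gene that also carries cAMP response elements (0.93 ± 0.25), Npy, the peptide cotransmitter of sympathetic nerves (0.59 ± 0.21), the G protein regulators Rgs6 (0.44 ± 0.17) and Rgs7 (0.47 ± 0.20, well above background on 2 of the 3 sleep fragmented arrays), Rrad, a small GTPase that restrains the L-type calcium channel until protein kinase A acts on it (-0.74 ± 0.29), and Ppp2ca, a catalytic subunit of protein phosphatase 2A (-0.44 ± 0.19).

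Sympathetic nerve genes bear on the supply of the ligand. Npy stood at -3.01, -3.24 and -2.79 on the controls and at -2.20, -2.65 and -2.40 on the sleep fragmented arrays, without overlap. The Npy probe was dim, though well above background on all 3 arrays of each group. With no filter on dim probes the median log2 fold change of all probes was 0.17, against 0.08 with the filter. The part of dimness in the Npy value was not tested. Th, the rate-limiting enzyme of catecholamine synthesis, did not follow Npy. It stood at 0.48, -0.09 and 0.60 on the controls and 0.61, -0.08 and 0.30 on the sleep fragmented arrays. Dbh, which makes noradrenaline from dopamine, ran from -2.19 on control replicate 2 to 1.09 on sleep fragmented replicate 2 (log2 fold change 0.78 ± 0.69). Slc6a2, the noradrenaline transporter, was well above background on 0 arrays. Of this list 7 of 13 genes were measured, 3 of them with a positive value.

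Receptors and G proteins that oppose or carry the signal held no called gene. Chrm2, the muscarinic receptor through which the vagus slows the heart, had a log2 fold change of 0.32 ± 0.19 without overlap of the groups, while Gnas, the stimulatory G protein alpha subunit, had 0.19 ± 0.19 and Gng11, a gamma subunit, -0.27 ± 0.22. Of 10 G protein genes measured 4 were positive, and of 4 muscarinic and adenosine receptor genes 3. In the list of other cyclases, which also holds the cAMP-binding Popeye genes, Bves had -0.34 ± 0.23. The alpha-arrestin gene Arrdc3, in the list of other kinases and arrestins, had 0.34 ± 0.27. In the phospholipase C arm, 6 of 10 genes were positive, among them Plcb4 (0.34 ± 0.21) and Plcb3 (0.23 ± 0.17).

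Downstream of cAMP, 7 of 14 phosphodiesterase genes and 7 of 14 genes of protein kinase A and its anchors had a positive value. The phosphodiesterase gene Pde1a, whose product is activated by calcium and calmodulin, had 0.42 ± 0.19, and Pde4dip, whose product anchors Pde4d protein, 0.36 ± 0.18, both without overlap of the groups. Other probes of Pde4dip stood at 0.09 and -0.06. Akap1, which anchors protein kinase A at mitochondria, had -0.41 ± 0.19 by its brightest probe, also without overlap, and 0.28 ± 0.28 by the other. Akap7 had 0.49 ± 0.25, with other probes at -0.05 and -0.01. Genes whose products bind cAMP as exchange factors (Rapgef3 and Rapgef4) had 0.00 ± 0.19 and -0.08 ± 0.21. In the list of cAMP-responsive transcription Nr4a1, an early response gene, had 0.78 ± 0.36, and Crem, whose short product ICER represses cAMP-driven transcription, -0.17 ± 0.18. None of these passed by limma.

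**Figure D5:**
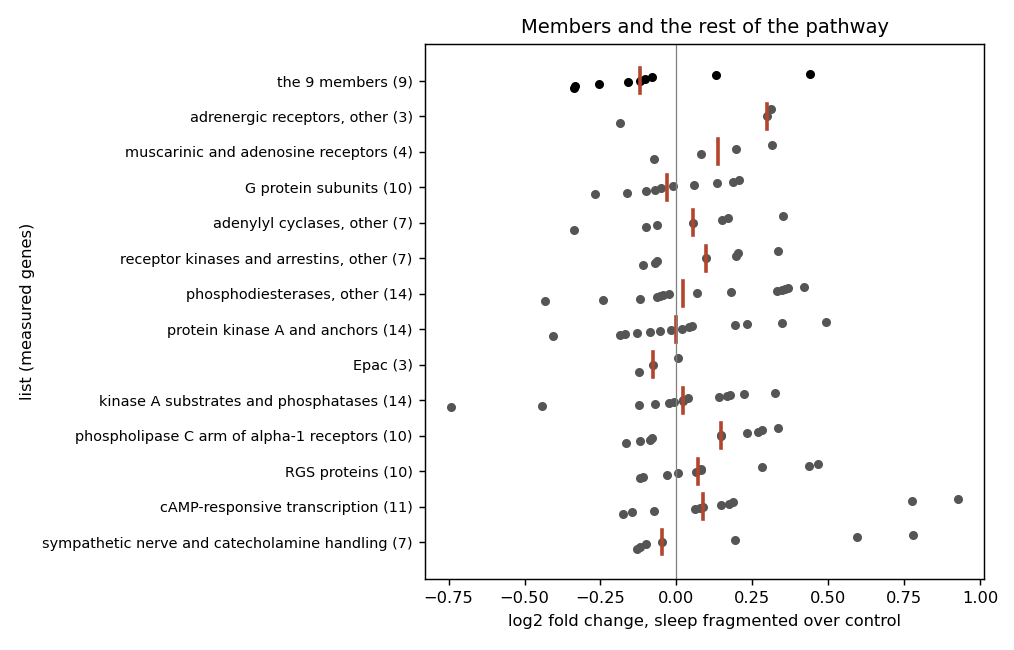
Log2 fold change, sleep fragmented over control (horizontal axis), of the 9 genes and of each measured gene of the 13 pathway lists (vertical axis, number of measured genes in brackets); each point is a gene by its brightest probe and each red bar the median of a list. Values of the 9 genes run from -0.34 to 0.44, and no gene shown passed the adjusted threshold.

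The genes whose pattern over the 6 arrays was most like that of Adcy5, among 13873 named genes compared, were Trim37 (Pearson r = 0.992), Adgra3 (r = 0.988) and Xpo1 (r = 0.986). These are descriptions over 6 arrays that share depth and tissue make-up, and so many genes always include some that track closely.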

How the data were processed

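Per the labels' protocols, total RNA was purified on columns, amplified, and labelled for 1-colour hybridisation. The authors deposited 1 scanner file per array; per the file headers, the intensity values (background-subtracted spot signals, median spot signals and local backgrounds, on a linear scale) came from Agilent Feature Extraction 11.0.1.1, while the submitters' processing notes name 10.5.1.1. They also deposited a table of log2 values, whose normalization the sources used here do not name. All 6 columns have a median of 5.53 and each matches its own array's log2 intensity (r of 0.998 or more, slope 0.93 to 1.05). The deposited table served as an alternative. Its members' fold changes were nearly those of quantile normalization (Adrb1 -0.289 and -0.290, Adcy5 -0.350 in both).

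Control spots and outlier spots (180 to 240 per array) were left out, spots of a probe were averaged, and the array's 75th percentile over all probes was subtracted from log2 intensity. No spot was saturated (0 on each array). A probe was kept where all 3 arrays of either group showed it well above background (25222 of 39429). Names came from matching accessions to RefSeq of assembly GRCm38.p6 (27234 probes, 69.1%). The brightest kept probe stands for a gene. Groups were compared with limma 3.58.1 in R 4.3.3 (default eBayes, two-sided, Benjamini-Hochberg over all kept probes); errors are moderated standard errors. The fit was tested on simulated data. The number of arrays limits the precision.

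Groups and replicate numbers come from the end of the sample titles. The members and lists were chosen with earlier results of these data known. Named genes are all members, up to 3 genes of smallest p per pathway list, and the members' closest relatives; Th, Slc6a2, Adra2a and Adcy1 fall outside this rule and were chosen after their values were seen. Alternatives covered scaling, background correction, filters, the deposited table, blocks, weights, the prior, probe averaging and leaving out arrays.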

Additional observations from a re-analysis of the deposited data

How the results depend on the processing

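With 3 arrays per group, 0 members passed the adjusted threshold under any of the 19 alternatives, and their adjusted p by limma lay between 0.603 and 1.00. In 5 alternatives, which alter only the error or the probes tested, members' fold changes cannot move. Over the other 14, 112 of 126 values kept their sign. Of these 14, quantile normalization and the deposited table gave nearly the same values and do not count as separate evidence. Among all probes, where 0 passed, 3 did with normexp background correction, 4 with the replicate block, 4 with the array barcode position block (the same fit, since position and number coincide) and 7 without the 2 arrays with high atrial and adipocyte markers. With median scaling 1 member had an unadjusted limma p under 0.05 (Adcy5, -0.55), against 4.45% of all probes. In that setting 2 members separated without overlap (Adcy5 and Grk2), against 9.59% of all probes. The members' median was then -0.33 and Arrb1 stood at -0.0799. Without the 2 arrays 1 member (Grk5) had an unadjusted limma p under 0.05, as did 1030 of 25752 tested probes. There 4 members separated without overlap, against 27.9% of all probes, and Adcy6 stood at 0.11. Leaving out 1 array gave 0 to 1 members at an unadjusted limma p under 0.05 (1 without sleep fragmented replicate 2, against 4.97% of all probes). It gave 0 to 2 members without overlap, and medians from -0.23 to 0.00. Without control replicate 2 or sleep fragmented replicate 3 it was 2 members, against 12.7% and 15.6% of all probes. Without sleep fragmented replicate 2 it was 1 member, against 21.2%.

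With normexp the values turned to 0.033 for Adrb1, 0.0557 for Adra1a and 0.0155 for Pde4d, and with probes averaged to 0.0635 for Adrb1 and 0.0604 for Pde4d. With 1 array left out values ranged from -0.2235 to 0.0311 for Adrb1, -0.2346 to 0.0711 for Adra1a, -0.2873 to 0.0914 for Adcy6, -0.1011 to 0.2902 for Arrb1 and -0.2301 to 0.0752 for Pde4d. Adrb1, Adra1a (0.0148) and Pde4d (0.0036) turned without control replicate 1, Pde4d without sleep fragmented replicate 1, and Adra1a, Adcy6 and Arrb1 without sleep fragmented replicate 2. The cause was not tested. The replicate numbers are not stated to pair the samples: deviations of same-numbered arrays correlated at 0.06, 0.55 and 0.21, and sleep fragmented replicate 1 correlated best with control replicate 3 (0.36). The block changed no member's call; it raised the probes at an unadjusted p under 0.05 from 735 to 2018.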
